A study of Mus musculus with 8 samples.

Results

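Transcripts of the enzymes that build cholesterol and fatty acids, and of the proteins that set their rate, were measured in whole lungs of mechanically ventilated and control mice. The 34 genes were taken by name along the mevalonate, sterol and fatty acid steps, and the array's probes were assigned to them by platform gene symbol. Of the 34, 31 had at least 1 probe, 45 of the 25697 probes in all, and Acat2, Mvk and Fdft1, which had none under their symbols, were not analysed here. A gene was tested when its probe was detected above background (detection p under 0.05) on at least 3 arrays, which left 28 members among 10200 features. Ggps1, Tm7sf2 and Mylip did not pass that filter.

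The ventilated group held lungs of 5 NOD/shi mice that had been ventilated, and the control group lungs of 3 NOD/shi mice that had not, all aged 6 to 12 weeks. NOD/shi is a substrain of the non-obese diabetic mouse, and no other allele or agent is named in the labels. Total RNA of each lung was read on 1 Illumina bead array. The study's question is how a lung responds to injury by the ventilator. Settings and duration of ventilation, and how controls were handled, were not stated. Nothing in the labels says whether lungs shared a litter or a day. The p-values set the difference between groups against the spread among lungs within them. An effect of litter or day could not be told apart from that of ventilation.

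Cholesterol is made from acetyl-CoA through mevalonate, which is phosphorylated and decarboxylated to isoprene units, joined to squalene, closed to lanosterol and trimmed to cholesterol. The transcription factors SREBP1 and SREBP2 turn on these genes and those of fatty acid synthesis. Scap carries them from the endoplasmic reticulum to the Golgi for cleavage when sterol is low, and Insig proteins hold Scap back when it is plentiful. In the lung, alveolar type 2 cells make fatty acids and phospholipids for surfactant, which also contains cholesterol.

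Array brightness differed within both groups. Mean probe intensity was 87.4 to 321 on the ventilated arrays and 54.3 to 332 on the control arrays. Between 9765 and 13924 probes were detected on ventilated arrays and between 8080 and 14313 on control arrays. Control 2 was the dimmest array, with 19 of the 31 members detected, against 20 to 28 on the ventilated arrays and 29 and 27 on controls 1 and 3. Of the 28 tested members 15 were detected on all 8 arrays, and the number of arrays limits the precision of every value. Lung tissue markers were present throughout, with 8 of 8 measured, none past the threshold, and a summed normalized intensity of 39600 to 50000 in ventilated and 36600 to 53300 in control lungs. In whole lung, fewer cells of a type and less RNA per cell cannot be told apart. Control 1 had the highest sums of muscle, fat and liver markers. Its skeletal muscle markers (5 of 8 measured, none past the threshold) summed to 4360, against 148 to 182 in ventilated lungs and 104 and 162 in controls 2 and 3. Its adipocyte markers (4 of 8 measured, none past the threshold) summed to 305. Sums were 120 to 153 in ventilated lungs and 119 and 129 in the other controls. Adipoq (log2 level 7.57), the largest part, and Lep (5.65) lay above all other lungs, while Cidea (5.15) and Slc36a2 (4.86) lay within their range. The fat droplet genes Plin1 and Cidec did not pass the detection filter. Its hepatocyte markers (3 of 6 measured, none past the threshold) summed to 562. Sums were 93.2 to 159 in ventilated lungs and 136 and 148 in the other controls. Cyp2e1 (log2 level 8.88), the largest part, and Ttr (6.1) lay above all other lungs, while Serpina1a (4.56) lay within their range. Albumin (Alb) did not pass the filter.

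Ventilated lungs had a 10.2-fold higher signal from the probe for Pmvk, the kinase that adds the second phosphate to mevalonate, while no other member passed the threshold in either direction. With limma and Benjamini-Hochberg adjustment over all 10200 features, at an adjusted p under 0.05, 1 of the 28 members rose (3.57%) and 0 fell. Over all features 1.26% rose and 0.735% fell. Unadjusted p was under 0.05 for 2 members with higher and 6 with lower means in ventilated lungs, or 7.14% and 21.4% of members, where the shares of all features were 8.69% and 7.55%. The log2 fold change (ventilated minus control) was below 0 for 16 members (57.1%) and above 0 for 12. Over all features 48.8% were below 0. The members' median was −0.16, beside a median of 0.01 over all features. Those are descriptions of the list, and whether it differs from other genes was not tested. Of all features 6.71% had every ventilated value above every control value and 6.45% had every one below. Of the members 2 were separated upward (Pmvk and Hsd17b7) and 4 downward (Mvd, Sqle, Ebp and Srebf1), which is 7.14% and 14.3%.

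**Figure D1:**
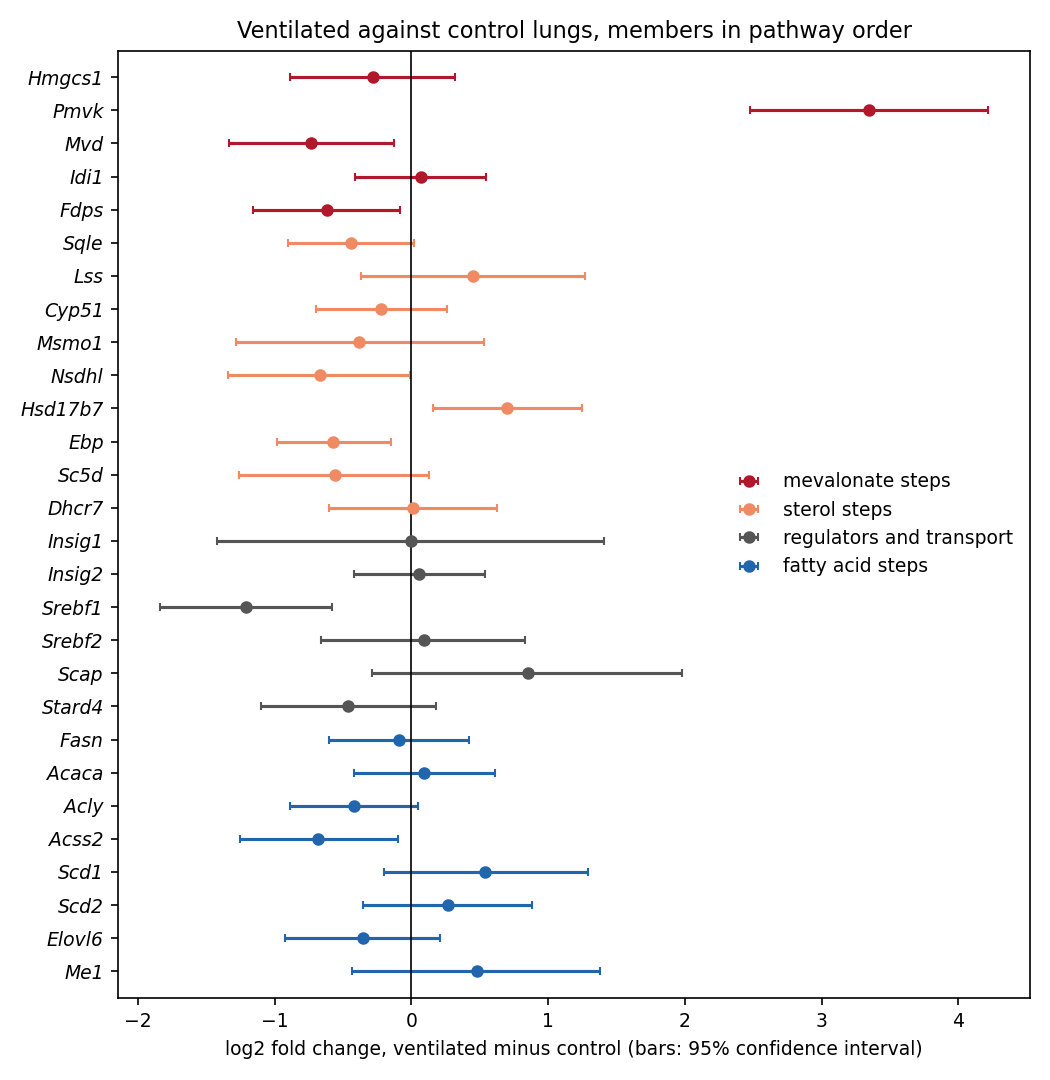
Log2 fold change of the 28 tested members, ventilated minus control lungs (x axis), listed from the mevalonate steps at the top to the fatty acid steps at the bottom. Points are estimates from limma and bars their 95% confidence intervals. Pmvk stands at 3.35, away from all others, which lie between −1.21 and 0.85.

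Pmvk encodes phosphomevalonate kinase. Its normalized log2 level was 9.51, 9.01, 9.43, 9.21 and 9.57 in ventilated lungs 1 to 5 and 6.63, 4.79 and 6.56 in control lungs 1 to 3. Every ventilated lung lay more than 2 log2 units above every control lung, and the lowest value was that of control 2, the only array on which Pmvk was not detected. The log2 fold change was 3.35 ± 0.39 (SE; adjusted p = 0.00322), the 4th largest rise among all 10200 features. The ventilated mean was 9.35 ± 0.23 (SD, n = 5) and the control mean 5.99 ± 1.05 (SD, n = 3). Before normalization the intensity of its single probe (ILMN_1227596) was 343.5, 633.3, 410.3, 196.3 and 1503 on ventilated arrays 1 to 5 and 245.5, 41.53 and 166.9 on the controls. Whether that probe also binds other transcripts was not tested, since its sequence was not used here. On the intensity scale the dim ventilated array 4 lay below control 1, and the groups separated once array brightness had been normalized. Without control 2 the log2 fold change was 2.77 (adjusted p = 0.000346), and among the 4 brighter arrays alone, ventilated 2 and 5 and controls 1 and 3, it was 2.75 (adjusted p = 0.0353). The deposited value table gave 2.15 (adjusted p = 0.0131). Scaling each array to a common median in place of quantile normalization kept the direction (2.56) and lost the call, with an adjusted p of 1 and 0 features called in all.

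Neutrophil markers were also higher, as a sum, in ventilated lungs. Of 8 measured, 4 rose, and their summed normalized intensity was 6990 to 16900 in ventilated and 659 to 1010 in control lungs. The part of these cells in the Pmvk result was not tested.

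A window at the more upstream listed start site of Pmvk is shown beside windows of 3 other members whose values are described below. They are shown since genes of this pathway are known to share binding sites for SREBP and NF-Y. Windows of 250 bases before to 50 after a start site, from RefSeq (GRCm38.p6), were searched on both strands for TCACNCCAC, a form of the sterol regulatory element, for the NF-Y box CCAAT, for the GC box GGGCGG and for the E-box CACGTG. The table held 37 windows for 28 of the 34 members. Capitals mark TCACNCCAC and CCAAT on either strand, so that ATTGG is a CCAAT box read from the opposite strand. The windows are chr3:89454291-89454590 (plus strand) for Pmvk, chr13:119690101-119690400 (plus) for Hmgcs1, chr1:169969156-169969455 (minus) for Hsd17b7 and chrX:8193463-8193762 (minus) for Ebp, each written 5′ to 3′ along its gene.
Pmvk: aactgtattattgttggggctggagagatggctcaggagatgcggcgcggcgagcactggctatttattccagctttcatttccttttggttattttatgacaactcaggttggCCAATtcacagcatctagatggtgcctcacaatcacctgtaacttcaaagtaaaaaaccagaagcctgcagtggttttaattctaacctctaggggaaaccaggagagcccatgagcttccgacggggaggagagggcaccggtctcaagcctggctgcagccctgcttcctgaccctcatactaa
Hmgcs1: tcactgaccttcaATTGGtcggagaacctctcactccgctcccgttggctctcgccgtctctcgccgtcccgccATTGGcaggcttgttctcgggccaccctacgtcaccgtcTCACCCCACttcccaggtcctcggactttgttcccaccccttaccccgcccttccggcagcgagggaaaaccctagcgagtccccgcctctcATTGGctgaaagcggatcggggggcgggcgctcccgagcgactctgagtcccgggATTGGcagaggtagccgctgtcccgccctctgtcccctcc
Hsd17b7: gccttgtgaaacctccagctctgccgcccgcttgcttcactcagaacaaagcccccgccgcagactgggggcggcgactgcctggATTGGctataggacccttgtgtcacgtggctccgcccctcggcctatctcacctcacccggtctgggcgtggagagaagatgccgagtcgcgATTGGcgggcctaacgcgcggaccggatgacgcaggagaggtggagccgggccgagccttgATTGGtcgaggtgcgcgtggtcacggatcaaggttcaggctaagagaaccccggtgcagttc
Ebp: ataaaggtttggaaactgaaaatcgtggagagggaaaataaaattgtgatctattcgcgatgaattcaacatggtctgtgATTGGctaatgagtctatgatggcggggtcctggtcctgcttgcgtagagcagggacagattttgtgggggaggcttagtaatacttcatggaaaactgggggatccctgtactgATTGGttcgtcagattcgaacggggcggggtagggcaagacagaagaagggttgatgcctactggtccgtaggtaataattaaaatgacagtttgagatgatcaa

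The printed Pmvk window held 1 CCAAT box, 0 GC boxes and no match to TCACNCCAC. A second Pmvk window further into the gene, chr3:89459321-89459620, held none of the 4 motifs. The sequence between these windows was not searched for Pmvk. Which start site is used in the lung was not tested, so the printed window need not be the Pmvk promoter at work there. The Hmgcs1 window held 4 CCAAT boxes, 3 GC boxes and 1 match to TCACNCCAC, which starts 137 bases before the start site and was the only match to these letters among the members' windows. Hsd17b7 had 3 CCAAT boxes and Ebp 2. CCAAT was found in 25 of the 37 member windows (67.6%) and in 37.4% of all 32851 windows, and GGGCGG in 73% and 35.7%. CACGTG was found in 16.2% and 7.15%, and TCACNCCAC in 2.7% and 1.24%. These are matches of letters in short windows, not binding sites.

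The other 4 mevalonate genes tested gave no call. Hmgcs1, which makes HMG-CoA, the precursor of mevalonate, had log2 levels of 9.88 to 10.77 in ventilated and 10.36 to 11.17 in control lungs, and a log2 fold change of −0.28 ± 0.27 (adjusted p = 0.662). Mvd, the decarboxylase that acts 1 step after Pmvk, was at 4.65, 5.09, 5.08, 5.43 and 5.58 in ventilated lungs 1 to 5 and at 5.61, 6.31 and 5.76 in controls 1 to 3. The groups did not overlap, by a gap of 0.03 between ventilated 5 and control 1, and the log2 fold change was −0.73 ± 0.27 (adjusted p = 0.219). Mvd was dim, and it was detected on 4 of 5 ventilated and 3 of 3 control arrays. Fdps, which joins isoprene units to farnesyl diphosphate, ranged from 7.87 to 8.14 in ventilated lungs, within 0.27 of each other, and was 8.11, 9.02 and 8.82 in the controls (log2 fold change −0.62 ± 0.25, adjusted p = 0.249). Idi1, the isomerase before it, was near the limit of detection. It was detected on 2 ventilated and 1 control arrays and stood at 0.07 ± 0.22. Ggps1, which makes the geranylgeranyl donor, was detected on control 2 alone.

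**Figure D2:**
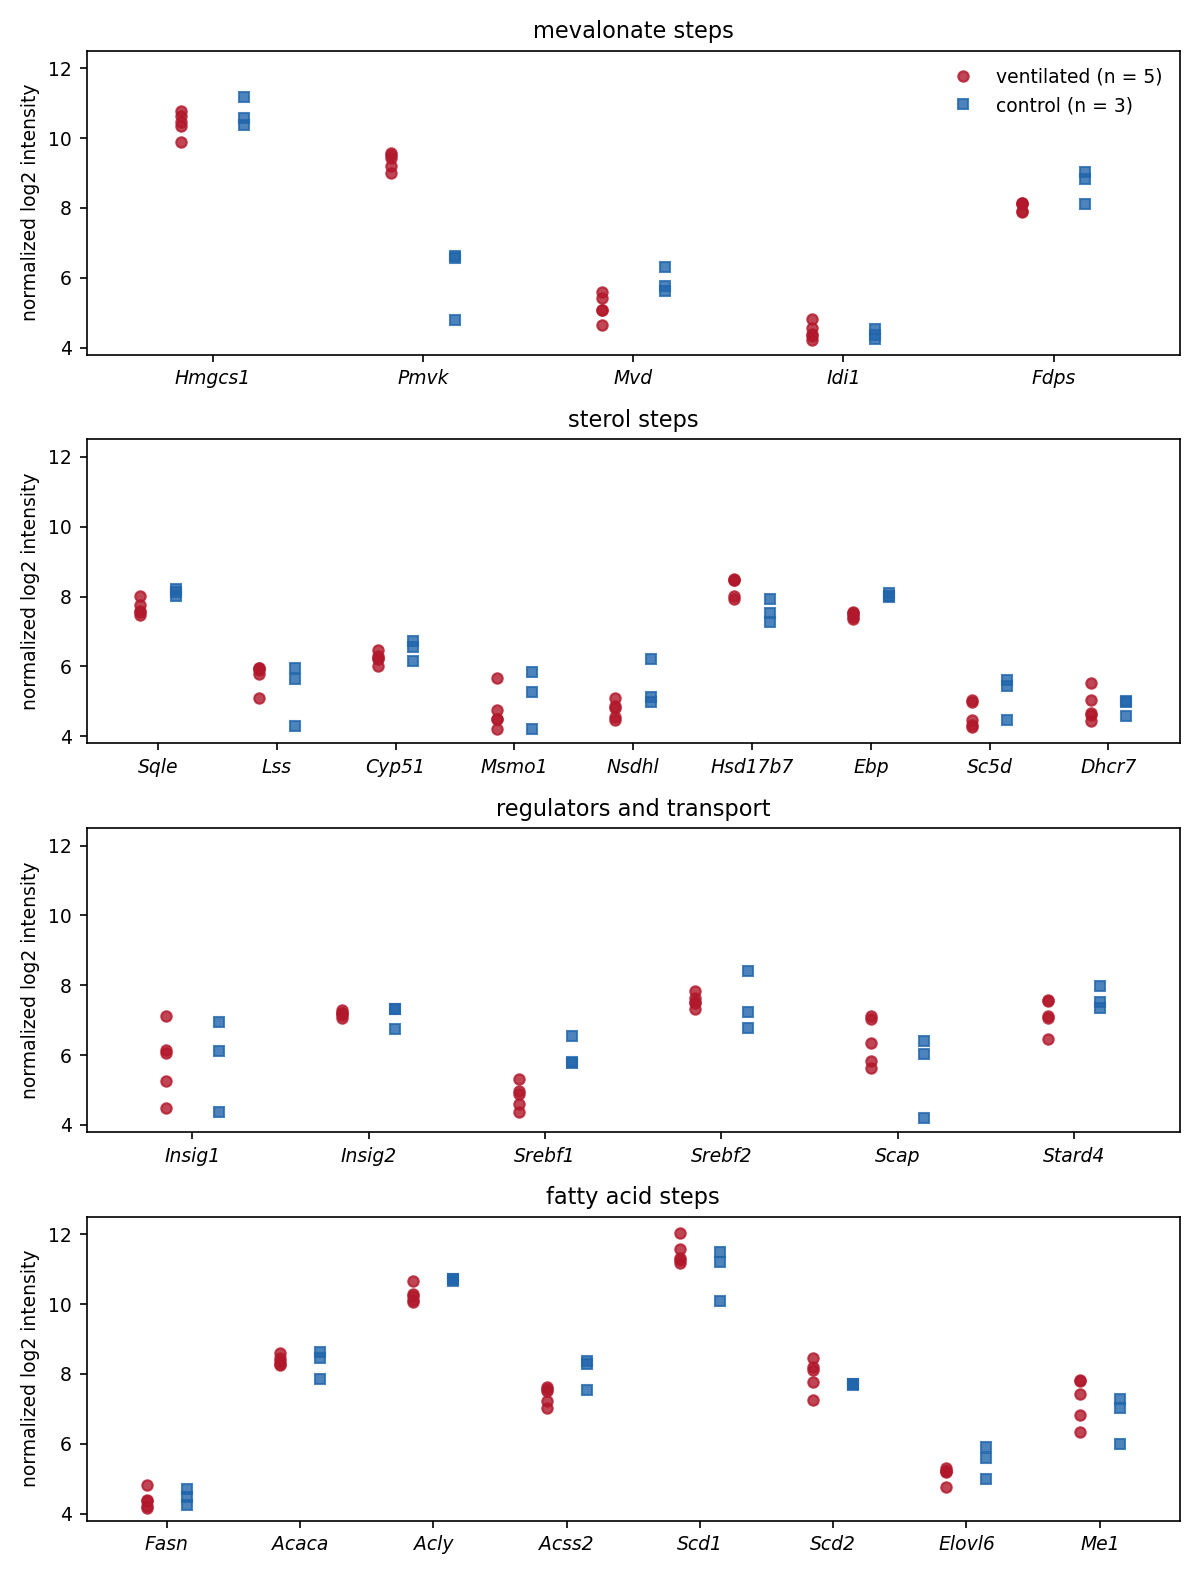
Normalized log2 intensity (y axis) of every tested member in each lung, with ventilated lungs as circles on the left and control lungs as squares on the right of each gene. Levels of different probes are not comparable. Pmvk has its ventilated lungs between 9.01 and 9.57 and its controls between 4.79 and 6.63, whereas for most other genes the symbols overlap.

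The sterol steps had no member past the threshold. Of their log2 fold changes 6 of 9 (66.7%) were below 0, beside 48.8% of all features, and the median was −0.38. Ebp, the isomerase that shifts the ring double bond of the sterol, had the least spread. It was at 7.36, 7.41, 7.57, 7.53 and 7.51 in ventilated lungs and at 8.03, 8.09 and 7.99 in controls. All 5 ventilated values lay at least 0.42 below the lowest control, and the log2 fold change was −0.57 ± 0.19 (adjusted p = 0.166). Over the alternatives it ranged from −0.61 to −0.50, and it passed in 1 of them, without a detection filter (adjusted p = 0.0285). Hsd17b7, the sterol 3-keto reductase, was at 7.93, 8.48, 8.47, 8.49 and 8.01 in ventilated lungs and at 7.54, 7.26 and 7.92 in controls. It was the only sterol gene separated upward, by 0.01 between ventilated 1 and control 3, and had a log2 fold change of 0.70 ± 0.25 (adjusted p = 0.187).

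Sqle, the epoxidase that oxidizes squalene, was at 7.48 to 8.02 in ventilated and 8.02 to 8.21 in control lungs, a separation smaller than 0.01. Its log2 fold change was −0.44 ± 0.21 (adjusted p = 0.334), and a second, dimmer probe gave −0.30. Lss, which closes squalene epoxide to lanosterol, was at 5.09 to 5.97 in ventilated lungs and at 5.63, 4.30 and 5.95 in controls. Its estimate of 0.45 ± 0.37 rested on control 2, where it was not detected, and was −0.05 without that array. Cyp51, the lanosterol demethylase, stood at −0.22 ± 0.22 with overlapping groups.

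Nsdhl and Msmo1, which remove the methyl groups at carbon 4 of the ring, and Sc5d, which adds a ring double bond late on the way to cholesterol, were dim. Nsdhl gave −0.67 ± 0.30 (adjusted p = 0.301) with its brightest probe, at 4.48 to 5.09 in ventilated and 4.99 to 6.2 in control lungs. Its other 3 probes gave −0.87, −0.45 and 0.23, so they disagreed in sign, and without control 2 the brightest gave −0.32. Msmo1 (−0.38 ± 0.41) and Sc5d (−0.56 ± 0.31) were each detected on 2 ventilated and 2 control arrays. Dhcr7, the final reductase, was detected on 2 ventilated and 1 control arrays and stood at 0.01 ± 0.28, with an interval of −0.60 to 0.63. So near the limit of detection a difference could be missed. Tm7sf2, a sterol reductase, was detected on 2 control arrays and on no ventilated array. Its log2 level was 4.22 to 4.69 in ventilated and 4.18 to 4.60 in control lungs, so the groups overlapped.

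**Figure D3:**
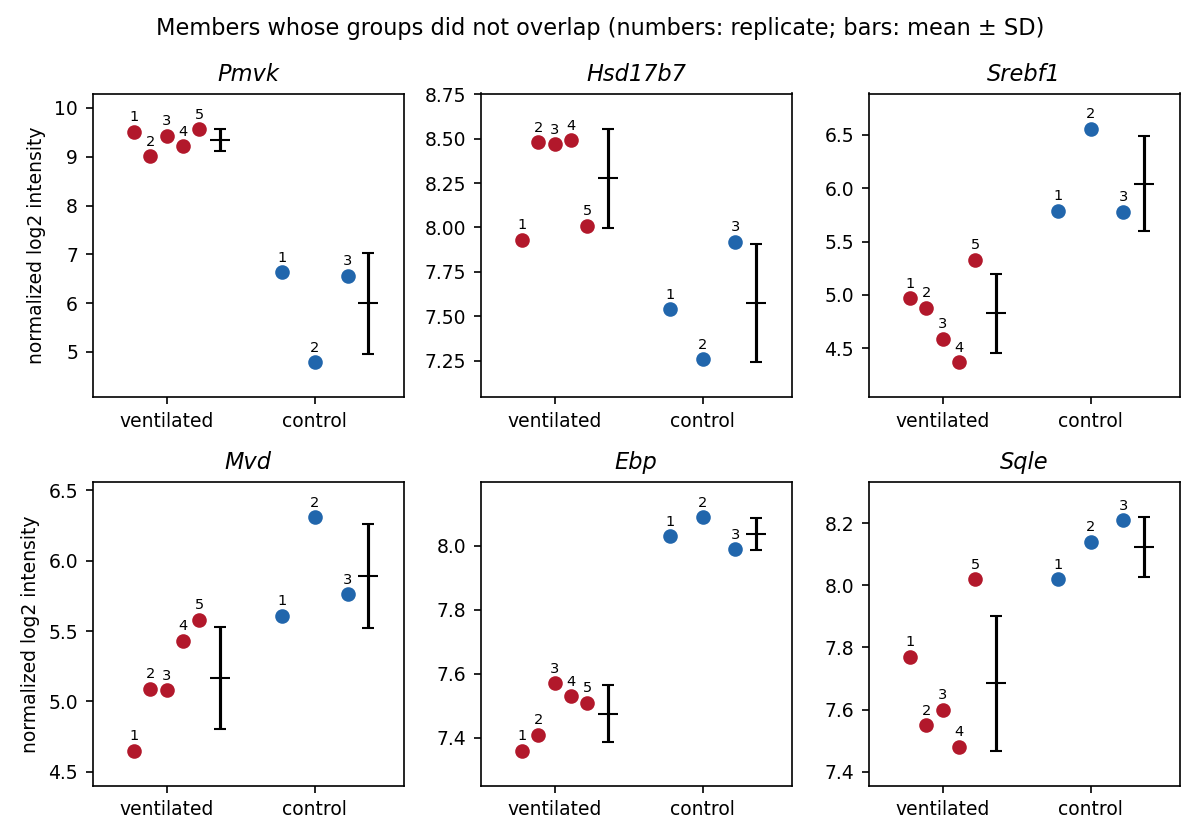
Normalized log2 intensity (y axis, not starting at 0 and with its own range in each panel) of the 6 members whose ventilated and control lungs did not overlap. Points are single lungs labelled by replicate number, and the bars give the mean ± SD. Ventilated lungs lie above controls for Pmvk and Hsd17b7 and below for Srebf1, Mvd, Ebp and Sqle, and for Hsd17b7, Mvd and Sqle the gap is at most 0.03.

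Among the regulators, Srebf1 had the lowest p but did not pass. Srebf1 encodes SREBP1, the factor linked mainly to fatty acid synthesis. It was at 4.97, 4.88, 4.59, 4.37 and 5.33 in ventilated lungs and at 5.79, 6.56 and 5.78 in controls. Every ventilated lung lay at least 0.45 below every control, and the log2 fold change was −1.21 ± 0.28 (adjusted p = 0.0605), a 2.32-fold lower mean. It was detected on 3 of 5 ventilated and 3 of 3 control arrays, and its other probe was not detected on any array. Over the alternatives that test it, its adjusted p was 0.0159 to 1. The log2 fold change was smaller with the deposited value table (−0.49, adjusted p = 0.995), without background correction (−0.73, adjusted p = 0.0757) and among the 4 brighter arrays (−0.85, adjusted p = 0.237). It passed with array weights (−0.97, adjusted p = 0.0159), which called 838 of the 10200 features, and with array brightness as a covariate (−1.22, adjusted p = 0.0349), which called 569. Without control 2 it was −1.02 (adjusted p = 0.106).

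Srebf2, which encodes SREBP2, the main factor of the sterol genes, gave no such separation. It was at 7.33 to 7.84 in ventilated lungs and at 6.78, 8.42 and 7.23 in controls, which enclosed all ventilated values. Its log2 fold change was 0.09 ± 0.34, with an interval of −0.66 to 0.83. Scap, the escort of both factors, was at 5.64, 6.36, 7.03, 7.11 and 5.83 in ventilated lungs and at 6.03, 4.21 and 6.40 in controls (0.85 ± 0.51, adjusted p = 0.466). It was not detected on control 2, and without that array its value was 0.18.

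Insig1 and Insig2 are the paralogs that retain Scap. Insig1 was the most variable member, at 4.48, 6.14, 6.06, 5.27 and 7.11 in ventilated lungs and at 6.96, 4.37 and 6.11 in controls. Both groups spanned over 2 log2 units, and the log2 fold change was −0.0029 ± 0.64, with an interval of −1.42 to 1.41 that leaves room for a change in either direction. The value was 0.51 without control 1 and −0.76 without control 2. Insig2 was far tighter, at 7.06 to 7.28 in ventilated and 6.74 to 7.32 in control lungs (0.06 ± 0.22, interval −0.42 to 0.54). Further detected probes gave 0.29 and −0.13 for Insig1 and −0.35 for Insig2. Stard4, a carrier of cholesterol between membranes, stood at −0.46 ± 0.29 (adjusted p = 0.485). Mylip, the ubiquitin ligase that marks lipoprotein receptors for breakdown, was detected on ventilated array 3 alone.

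The fatty acid steps had 0 of 8 members past the threshold, 4 above and 4 below 0, and a median log2 fold change of 0.00055. Acly, which makes cytosolic acetyl-CoA from citrate, was at 10.29, 10.22, 10.13, 10.06 and 10.67 in ventilated lungs and at 10.72, 10.71 and 10.66 in controls. The other 4 ventilated lungs were below all controls and lung 5 was level with them (−0.42 ± 0.21, adjusted p = 0.368). Acss2, which makes acetyl-CoA from acetate, was at 7.04, 7.22, 7.50, 7.57 and 7.64 in ventilated lungs and at 8.30, 7.54 and 8.36 in controls (−0.68 ± 0.26, adjusted p = 0.235). Controls 1 and 3 stood above all ventilated lungs and control 2 among them, and without control 2 the value was −0.95 (adjusted p = 0.0844). With array weights, under which 838 of the 10200 features passed, it was −0.91 (adjusted p = 0.0126).

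Acaca, the carboxylase that commits acetyl-CoA to fatty acids, was at 8.26 to 8.60 in ventilated and 7.85 to 8.62 in control lungs (0.09 ± 0.23, interval −0.42 to 0.61). Fasn, the fatty acid synthase, was near the limit of detection. It was detected on 1 ventilated and 2 control arrays, at 4.17 to 4.82 and 4.24 to 4.71, and a difference was not detectable at this signal (−0.09 ± 0.23). Elovl6, which lengthens the product, stood at −0.35 ± 0.26 and was detected on 4 ventilated and 2 control arrays.

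Scd1 and Scd2 are paralogous desaturases that make monounsaturated fatty acids. Whether their probes share signal was not tested. Scd1 was at 11.57, 11.19, 11.25, 11.31 and 12.05 in ventilated lungs and at 11.50, 10.09 and 11.21 in controls (0.54 ± 0.34, adjusted p = 0.478). Only control 2 lay clearly below the ventilated range, and without it the log2 fold change was 0.12. Scd2 was at 8.46, 8.21, 8.11, 7.26 and 7.78 in ventilated lungs, against 7.70, 7.71 and 7.68 in controls (0.27 ± 0.28). The controls agreed within 0.03 while ventilated lungs lay on both sides of them. Me1, the malic enzyme that supplies NADPH, stood at 0.48 ± 0.41, with a second probe at 0.85 and a value of 0.09 without control 2. Control 1 was the lung with the highest muscle and fat marker sums. Without it the values were 0.84 for Scd1, −0.41 for Acly, −0.56 for Acss2 and −0.07 for Fasn. Type 2 cell markers (8 of 8 measured, none past the threshold) summed to 16900 to 22200 in ventilated and 15100 to 18300 in control lungs. Alveolar macrophage markers (3 of 8 measured, none past the threshold) summed to 599 to 888 in ventilated and 974 to 1190 in control lungs. Car4 and Mrc1 made up most of these sums. Each overlapped between the groups (log2 fold changes −0.57 and −0.48), and Marco was detected on 1 ventilated and 2 control arrays. Whether the Car4 and Mrc1 signal came from alveolar macrophages was not tested, so these sums need not follow the number of those cells. The part of type 2 cells or alveolar macrophages in the fatty acid gene values was not tested.

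Of 49 further genes of lipid synthesis and its control 36 were tested, and 0 rose and 0 fell in the limma fit. At an unadjusted p under 0.05, 3 stood higher (8.33%) and 2 lower (5.56%) in ventilated lungs, where the shares of all features were 8.69% and 7.55%. They had a median log2 fold change of 0.12. In sterol sensing and export (6 of 10 genes tested) Nr1h3, which encodes the oxysterol receptor LXR alpha, an activator of Srebf1, was at 7.40, 6.93, 6.87, 7.43 and 6.99 in ventilated lungs and at 7.89, 8.45 and 7.97 in controls. Every ventilated value lay below every control value, as in 6.45% of all features, and the log2 fold change was −0.98 ± 0.24 (adjusted p = 0.0705). Whether the Nr1h3 and Srebf1 values are linked was not tested. Abcg1, which exports cholesterol from cells, stood at 0.39 ± 0.24 (adjusted p = 0.484). Among the 16 tested neighbours in lipid synthesis, Aacs, which activates acetoacetate for lipid synthesis, was at 5.89 to 6.82 in ventilated and 7.24 to 7.52 in control lungs (−1.03 ± 0.26, adjusted p = 0.0789). Pnpla2, the lipase that starts triglyceride breakdown, reached 10.83 in ventilated lungs, all of which lay above the highest control of 9.78 (0.88 ± 0.26, adjusted p = 0.126).

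The isoprenoid branch, which draws on the products that follow Pmvk, had 9 of 13 genes tested, with log2 fold changes from −0.34 to 0.34. In this group Fnta, a subunit of the protein farnesyl and geranylgeranyl transferases, stood at −0.22 ± 0.21 and Icmt, which methylates prenylated proteins, at −0.34 ± 0.31. Among 5 tested genes of SREBP processing the values ran from −0.25 to 0.79. Erlin1, an endoplasmic reticulum scaffold linked to Insig and SREBP control, stood at 0.79 ± 0.39 (adjusted p = 0.367) and its paralog Erlin2 at 0.45 ± 0.26. Both had their lowest level on control 2.

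**Figure D4:**
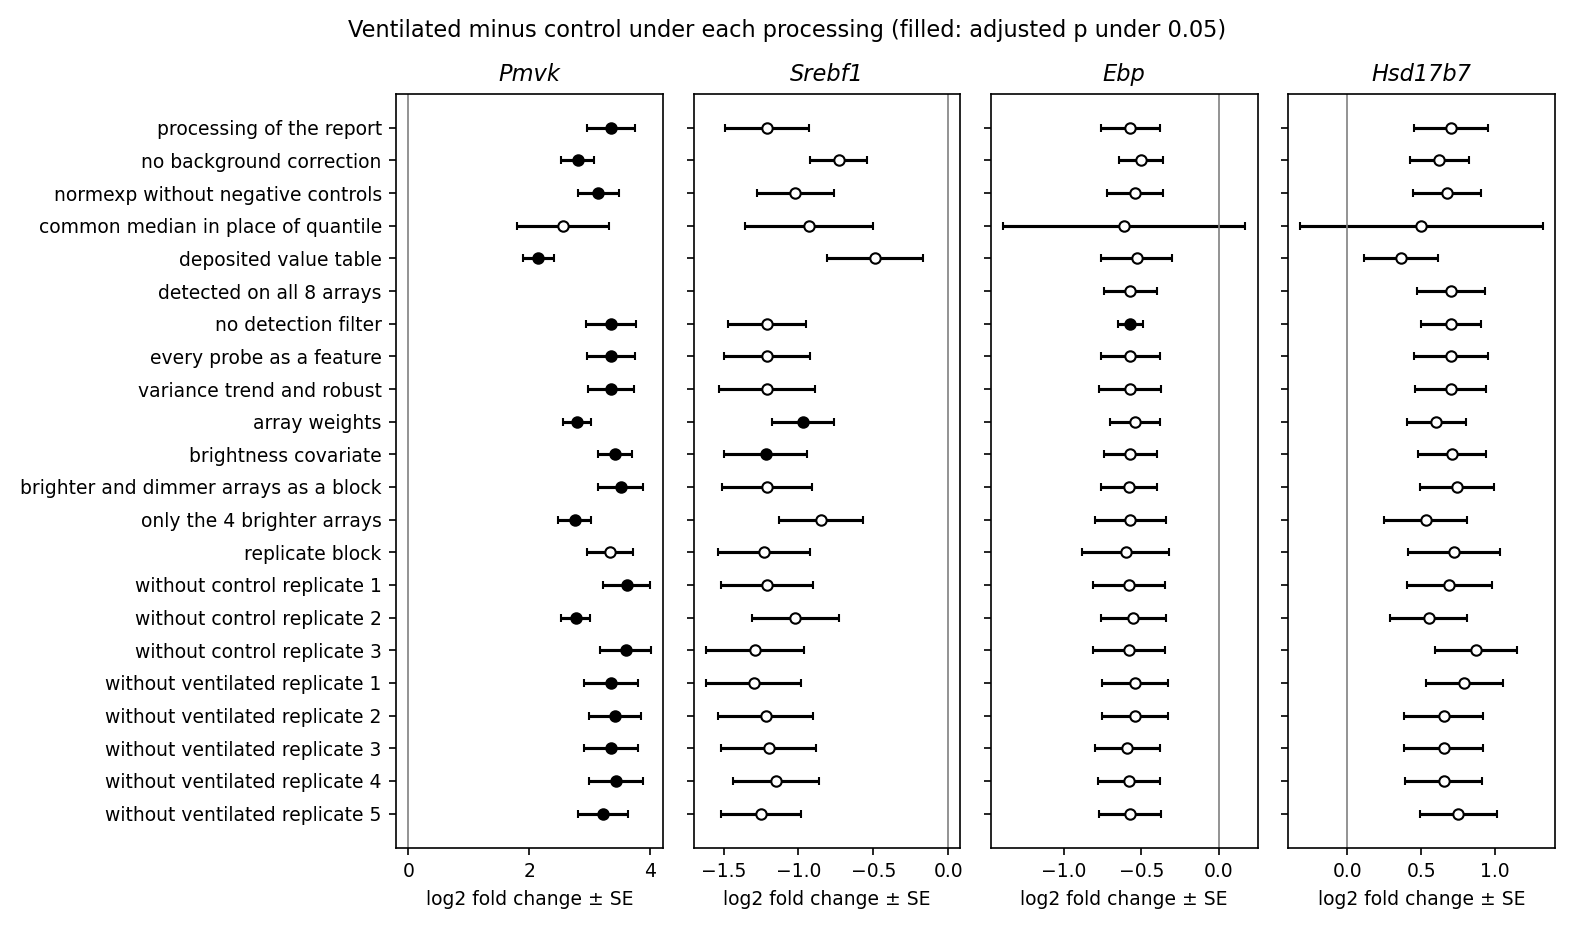
Log2 fold change ± SE (x axis, with its own range in each panel) of Pmvk, Srebf1, Ebp and Hsd17b7 under each processing and with each array left out (rows). Filled points have an adjusted p under 0.05. Pmvk ranges from 2.15 to 3.61 and is filled in all rows but those for the common median and the replicate block, and no row is drawn for Pmvk or Srebf1 where detection on all 8 arrays was required.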

How the data were processed

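The authors deposited non-normalized linear probe intensities, per the file headers, and for each a detection p-value. They also deposited a value table of the same intensities times 1 factor per array, as set against the first file (1 value was off its factor at a tolerance of 0.0001). Neither scanner nor software was stated. Per the labels, biotin-labelled cRNA was made from Trizol-extracted RNA. All 25697 probes went through neqc of limma 3.58.1 (R 4.3.3), which corrects background with negative controls reconstructed from the detection p-values, adds an offset (16), applies quantile normalization and takes log2. Probes detected on at least 3 of 8 arrays were kept, with the brightest per gene, and lmFit and eBayes compared 5 ventilated with 3 control arrays, two-sided, adjusted over all 10200 features. Probe symbols came from the platform annotation, and 1719 probes stayed unnamed. Confidence intervals are at 95%. Full values are given for members past the threshold, the 2 lowest p-values in each role group, paralog pairs and both Srebf genes, and for further pathway lists the 2 genes of lowest p-value. The members, lists, tests and alternatives were chosen with earlier results of these data known. The fit was tested on simulated data. Figures used Python 3.11.15 with matplotlib 3.10.9.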

Additional observations from a re-analysis of the deposited data

Results flagged for a closer look

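Among the 28 tested members, 2 had a ventilated lung far from the other 4 by Dixon's ratio of gap to range, above the limit of 0.71 for 5 samples. Chance flags about 1 in 20 such groups. Lss was at 5.09 in ventilated lung 2 and at 5.79 to 5.97 in the others (ratio 0.80). Elovl6 was at 4.76 in ventilated lung 4 and at 5.19 to 5.31 in the others (ratio 0.78).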

How the results depend on the processing

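The Pmvk rise kept its direction in all 20 alternatives that tested it and its call in 18. The number of risen members was 0 with a common median (Pmvk 2.56, adjusted p = 1), which shifted the median of all features to −0.11 and called 0 features. It was also 0 where detection on all 8 arrays was required, since Pmvk was then not tested, and with the replicate block (Pmvk 3.33, adjusted p = 0.14), which called 2 features in all. Correlations across features between same-numbered lungs were −0.34, −0.36 and 0.36, and those between other lungs ran from −0.55 to 0.53. Values were centred within each group first, so these correlations cannot decide whether the numbers pair the samples. The labels do not state it. The number of fallen members was 1 without a detection filter (Ebp), which called 228 of 18312 features. It was 1 with the brightness covariate (Srebf1) and 3 with array weights (Srebf1, Acss2, Sc5d), which called 569 and 838 of 10200 features, and it was 1 at an adjusted p under 0.1 (Srebf1). Members without a call changed sign, among them Scap (0.85 as reported) and Lss (0.45). With a common median Lss was −0.27, Dhcr7 −0.04, Insig2 −0.20 and Scap −0.03. With the deposited table Lss was −0.07, Insig2 −0.20, Fasn 0.05 and Acaca −0.07. With array weights Lss was −0.10, Dhcr7 −0.01, Insig2 −0.10 and Acaca −0.13. Insig1 was 0.0057 with normexp and 0.13 with the brightness covariate. With brightness as a block Dhcr7 was −0.04, Insig1 0.44, Srebf2 −0.09 and Fasn 0.0064. In the 4 brighter arrays Idi1 was −0.01, Lss −0.37, Dhcr7 −0.04, Insig1 0.09, Insig2 −0.10, Scap −0.14, Fasn 0.0091 and Acaca −0.11. With 1 array left out the ranges were −0.02 to 0.15 for Idi1, −0.05 to 0.74 for Lss, −0.16 to 0.12 for Dhcr7, −0.76 to 0.51 for Insig1, −0.14 to 0.16 for Insig2, −0.26 to 0.56 for Srebf2, −0.23 to 0.02 for Fasn and −0.14 to 0.25 for Acaca. The causes were not tested.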

Other observations

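Genes next to Pmvk in the RefSeq table, looked up after the Pmvk values were seen, did not pass the threshold. Pygo2 and Pbxip1, which precede it, had log2 fold changes of 0.10 ± 0.28 and −0.15 ± 0.42, and Adar, the second gene after it, 0.20 ± 0.24 (limma adjusted p = 0.899, 0.896 and 0.743). Kcnn3, which follows it directly, did not pass the detection filter. Pmvk had 1 probe on the array, so no second probe bears on its value.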
